A study of Mus musculus with 4 samples.

Results

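The genes described here are 10 genes of cell-cell adhesion, 6 cadherins (Cdh1, Cdh2, Cdh3, Cdh5, Cdh11 and Cdh13) and 4 catenins (Ctnna1, Ctnnb1, Ctnnd1 and Jup). The rule lists them by name and sets no threshold on measured values, and all 10 were found among the 21090 genes measured. RNA sequencing (RNA-seq) profiles were collected from 4 mouse mammary tumor cell lines with 1 library per line. The controls were the unedited parental cells and cells given the vector control (vector cells), and the knockouts were 1 line cut in exon 3 of S100a4 (exon 3 line) and 1 line cut in exon 2 (exon 2 line), S100a4 encoding a small calcium-binding protein. The study set the 4 side by side to ask what loss of S100a4 does in cells able to metastasize.

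The study describes the knockout lines as made from a cell line of a primary tumor. The sample titles do not establish that the exon 2 line shares its background with the other 3 lines. According to the study's methods, the starting cells were grown out of a mammary tumor that had spread to the lung, in a mouse with a mutant Pik3ca allele and a mutant Trp53 allele, both switched on by Cre recombinase under the MMTV promoter. The knockout lines were made by lentivirus expressing Cas9 and a guide RNA and were selected on puromycin, and no source used here says that they are single clones. The exon 2 line carries the cell number 308 in its title and the other 3 carry 307, so cell number and guide cannot be told apart there. No label says that libraries of a group came from separate cultures of one line, so p-values measure the spread between these lines and libraries only. In bulk RNA, fewer cells of a type and less RNA per cell cannot be told apart.

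Cadherins are single-pass or membrane-anchored adhesion proteins that bind the same cadherin on a neighboring cell in the presence of calcium. Inside the cell, the tail of a classical cadherin binds beta-catenin (Ctnnb1) or its relative plakoglobin (Jup), which hold alpha-catenin (Ctnna1) and through it actin, while p120-catenin (Ctnnd1) binds closer to the membrane and keeps the cadherin at the surface. Free beta-catenin is degraded by a destruction complex and, when spared, enters the nucleus and acts with Tcf and Lef factors in Wnt signaling. Loss of E-cadherin (Cdh1) with gain of N-cadherin (Cdh2) is the classical switch of epithelial-mesenchymal transition.

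The knockout labels were first checked on the targeted gene. S100a4 was at 3575.7 reads per kilobase of gene, scaled to library size (RPKM), in parental cells, 4740.8 in vector cells, 1135.6 in the exon 3 line and 1104.9 in the exon 2 line. Both knockouts lay below both controls, at 26.9% of the control mean, with an adjusted p of 0.0731 in limma (Benjamini-Hochberg, 10871 genes tested). These values are RNA levels and do not measure how complete the knockout was. For that, the study reports truncating mutations in most S100a4 transcripts of the knockout lines and loss of the protein by Western blot. The libraries held between 14723193 and 20563350 reads in genes, fewer in both knockouts than in both controls. Of 12 epithelial markers, 10 had a mean under 1 RPKM, among them Epcam (at most 0.657 RPKM), while Krt8 and Krt18 were expressed. Krt8 was at 69.0 RPKM in parental cells, 27.5 in vector cells, 78.9 in the exon 3 line and 54.8 in the exon 2 line. Krt18 was at 60.2, 6.1, 27.3 and 19.1 RPKM in that order. Vimentin (Vim) was between 1361.7 and 2418.2 RPKM. Of 4 leukocyte markers, Ptprc had at most 1 read in a library and Lyz2 and Csf1r were under 1 RPKM. Cd68, a lysosomal protein of macrophages, was at 4.92 RPKM in parental cells, 3.36 in vector cells, 11.5 in the exon 3 line and 13.2 in the exon 2 line (log2 change 1.39, unadjusted p = 0.00167, adjusted p = 0.105, limma). Both knockouts were above both controls, as for 21.9% of all tested genes, and 19.1% of all tested genes had an unadjusted p under 0.05.

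The members spanned several orders of magnitude, and 3 of the 4 catenins stood above every cadherin in every library. RPKM is a value per length, so levels of different genes are set side by side here as a rough order only. The order rests on counted lengths, which differed from annotated coding lengths for some members (2451 against 2145 bases for Cdh13), and the counting rule is not given. Ctnnb1 was highest in every library (218 to 331 RPKM), followed by Ctnna1 (73.2 to 136) and Ctnnd1 (52.9 to 63.0), and these 3 ranges did not overlap. Cdh2 (15.7 to 49.4), Cdh3 (2.18 to 48.8) and Jup (15.7 to 23.0) overlapped and changed order from library to library. Cdh13 ranged from 0 to 7.76 RPKM, and Cdh1, Cdh11 and Cdh5 stayed at or below 0.254 RPKM in every library. The summed level of the 4 catenins was 519 and 546 RPKM in parental and vector cells and 359 and 428 in the exon 3 and exon 2 lines, above the summed level of the 6 cadherins in each library.

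**Figure D1:**
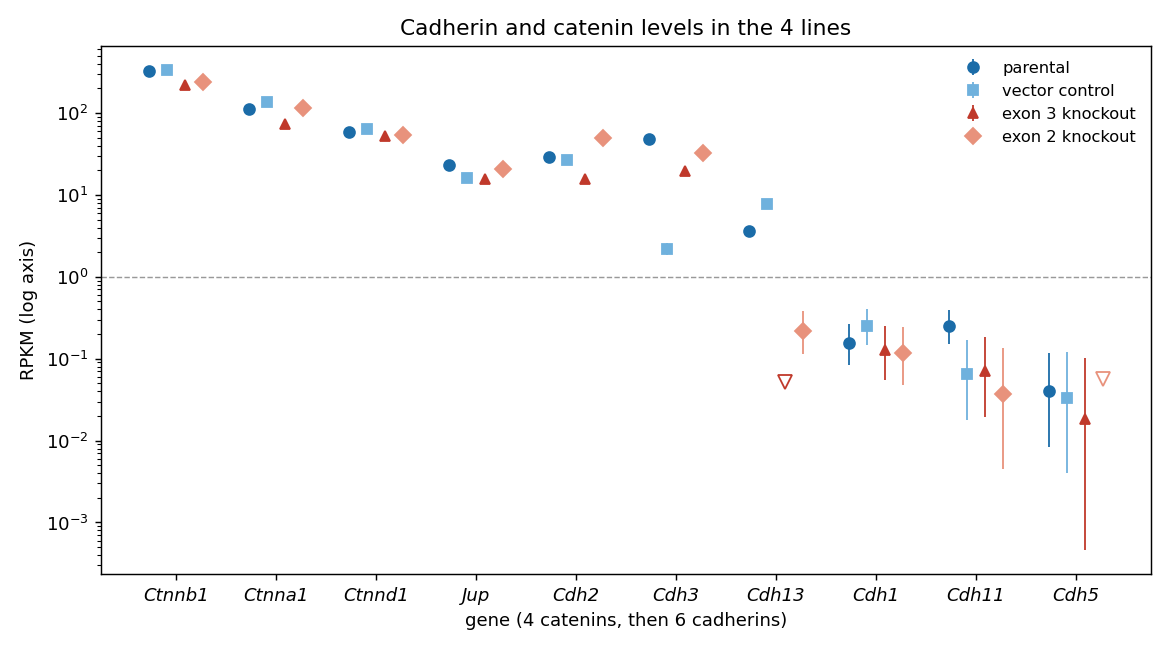
RPKM of each gene (log axis) in the 4 lines. Vertical bars are 95% Poisson intervals of the reads, smaller than the symbols for the upper 6 genes, open triangles mark a library without reads at the level 3 reads would have, and the dashed line is 1 RPKM. Ctnnb1, Ctnna1 and Ctnnd1 form the upper end in each line, Cdh3 is low in vector cells alone, Cdh13 is above 1 RPKM in the controls only, and Cdh1, Cdh11 and Cdh5 lie under 1 RPKM in all 4 lines.

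E-cadherin, the product of Cdh1 and the defining cadherin of epithelium, was close to absent at the RNA level. Cdh1 was at 0.157 RPKM in parental cells (13 reads), 0.252 in vector cells (17 reads), 0.128 in the exon 3 line (8 reads) and 0.117 in the exon 2 line (7 reads). The knockouts were lower in value, but the 95% Poisson intervals of all 4 libraries overlapped (0.0554 to 0.253 RPKM in the exon 3 line against 0.0835 to 0.268 in parental cells), so no difference was detectable at this depth. These intervals and the limits given for low counts below cover counting error only. Cdh1 lies on chromosome 8 of GRCm38, 106603351 to 106670246, on the plus strand, next to Cdh3.

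N-cadherin, the product of Cdh2 and the cadherin of mesenchymal and neural cells, was abundant. Cdh2 was at 29.2 RPKM in parental cells, 26.7 in vector cells, 15.7 in the exon 3 line and 49.4 in the exon 2 line. The exon 3 line was the lowest library and the exon 2 line the highest, with both controls between them. The log2 change of the knockouts against the controls was 0.00 on the log2(RPKM + 1) scale, used for every change below, (SE 0.449, adjusted p = 0.998, limma), a mean of 2 lines that lay on opposite sides of the controls. Cdh2 was 3.16-fold higher in the exon 2 than in the exon 3 line (2.94 to 3.39, 95% interval from counting error), a log2 difference of 1.60 that 100 of the 10871 tested genes (0.92%) reached. With 1 library a side, that difference has no replicate check. The level of Cdh2 over Cdh1 was 186 in parental cells, 106 in vector cells, 122 in the exon 3 line and 421 in the exon 2 line.

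P-cadherin, the product of Cdh3 and a cadherin of the basal layer of mammary epithelium, varied most inside the control group. Cdh3 was at 48.8 RPKM in parental cells (3760 reads), 2.18 in vector cells (137 reads), 19.7 in the exon 3 line (1141 reads) and 32.9 in the exon 2 line (1824 reads). The vector cells stood apart on the low side, the parental cells were the highest, and both knockouts lay between the 2 controls. The parental cells were 22.3-fold above the vector cells (18.8 to 26.7, counting error), a log2 difference that 26 tested genes (0.239%) reached in either direction and 18 in the same direction. The fitted change of the knockouts was 1.07 with an SE of 0.9 (adjusted p = 0.528, limma), against a control mean of 25.5 ± 32.9 RPKM (SD, n = 2) and a knockout mean of 26.3 ± 9.33 (SD, n = 2).

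The direction for Cdh3 rested on which control was used. Without the parental cells its log2 change was 3.06 (adjusted p = 3.02e-09, limma), and without the vector cells it was -0.91 (adjusted p = 0.165, limma). In both fits the lone control was assumed to vary as the knockouts do. The exon 3 line stood above the vector cells by 2.70 and the exon 2 line by 3.41 on the log2 scale, while they held 0.404 and 0.674 of the parental level. Cdh3 lies on chromosome 8, 106510891 to 106557297, plus strand. Among its neighbors there, chosen after their values were seen, the vector cells held 0.204 of the parental level for Smpd3, a sphingomyelinase, 1.48 for Zfp90, 1.03 for Tango6 and 1.48 for Chtf8. The summed epithelial markers moved with Cdh3 in part, at 130 RPKM in parental cells, 34.8 in vector cells, 107 in the exon 3 line and 75.1 in the exon 2 line, almost all of it Krt8 and Krt18, with the other 10 markers under 1 RPKM in every library. The summed fibroblast markers were 4579.8, 2436.3, 2190.7 and 2337.5 RPKM in the same order, most of it Vim, of which the exon 3 line had the least. Col1a1, at 670, 6.93, 54.3 and 24.2 RPKM in that order, Col1a2, at 808, 149, 297 and 194, Fn1, at 606, 164, 414 and 340, and Pdgfrb, at 76.1, 56.8, 64.0 and 57.4, were each highest in parental cells and lowest in vector cells, as Cdh3 was. The part of these markers in the Cdh3 values was not tested.

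T-cadherin, the product of Cdh13, is anchored in the membrane by a lipid and has no tail to bind catenins. It was also the cadherin whose groups were farthest apart. Cdh13 was at 3.63 RPKM in parental cells (278 reads), 7.76 in vector cells (483 reads), 0 in the exon 3 line (0 reads) and 0.218 in the exon 2 line (12 reads). Both controls were high and both knockouts were low, with no overlap between the groups. Knockouts below both controls were found for 31.2% of all tested genes. With 3 reads as the limit that a count of 0 allows in a library (0.0521 RPKM), Cdh13 was at least 69.6-fold lower in the exon 3 line than in parental cells and at least 149-fold lower than in vector cells. The exon 2 line was 16.7-fold below the parental cells (9.39 to 32.6, counting error) and 35.6-fold below the vector cells (20.2 to 69.4).

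The control mean of Cdh13 was 5.7 ± 2.92 RPKM (SD, n = 2) and the knockouts held 1.91% of it. The log2 change was -2.53 (SE 0.422), the 9th most negative of all tested genes, with an unadjusted p of 8.06e-05 and an adjusted p of 0.0731 in limma, so it did not pass the threshold of 0.05. An exact permutation test of 2 libraries against 2 cannot go below 0.333. Cdh13 entered the test only through the controls, since a mean of at least 1 RPKM over the 4 libraries was required, and it is among the genes the study itself picked on these libraries, so its direction is not independent evidence. The adjusted p from limma ranged from 1.25e-07 (without the parental cells, the lone control again assumed to vary as the knockouts do) to 0.328 (no filter) over 12 alternatives and passed 0.05 in 3 of them. The vector cells themselves were 2.14-fold above the parental cells (1.84 to 2.49, counting error).

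Cdh13 spans a large stretch of chromosome 8, 118283733 to 119324921, plus strand. Its neighbors on that chromosome, chosen after their values were seen, were not low in the same way. Hsbp1, a regulator of heat shock factor, was at 228 RPKM in parental cells, 292 in vector cells, 357 in the exon 3 line and 215 in the exon 2 line. Mphosph6 was at 10.1, 13.1, 12.5 and 7.78 RPKM in that order, and Mlycd at 2.94, 4.44, 5.12 and 4.05. Plcg2 was at 46.9, 29.1, 37.6 and 32.1 RPKM, lower in both knockouts than in parental cells but higher than in vector cells. The 3 tested genes whose pattern over the 4 libraries was most like that of Cdh13 were Nrep, Lmo1 and Galnt7, at distances of 0.48, 0.49 and 0.60 (Euclidean, on centered log2(RPKM + 1)). Lmo1 was at 2.01 RPKM in parental cells, 5.35 in vector cells, 0 in the exon 3 line and 0.0903 in the exon 2 line.

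The remaining cadherins were at the detection limit. Cdh5, or VE-cadherin, the cadherin of endothelium, had 3 reads in parental cells, 2 in vector cells, 1 in the exon 3 line and 0 in the exon 2 line, where 3 reads would be 0.0567 RPKM. All 8 endothelial markers were under 1 RPKM in every library, with summed levels of 0.291 to 0.591 RPKM in the controls and 0.243 to 0.654 in the knockouts, and Tie1, Cldn5 and Emcn had no read in any library. Cdh11, or OB-cadherin, a cadherin of mesenchyme and bone, was at 0.254 RPKM in parental cells (19 reads), 0.0659 in vector cells (4 reads), 0.0713 in the exon 3 line (4 reads) and 0.0372 in the exon 2 line (2 reads). The parental cells were the highest, 3.86-fold above the vector cells (1.28 to 15.6, counting error), and the other 3 libraries did not differ beyond counting error. Both genes lie on chromosome 8, Cdh5 at 104101625 to 104144511 on the plus strand and Cdh11 at 102632095 to 102785642 on the minus strand, and neither was tested, as for Cdh1.

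Together the cadherin values gave 4 pools of different make-up. The summed level was 82.1 RPKM in parental cells, 37.0 in vector cells, 35.6 in the exon 3 line and 82.7 in the exon 2 line, so each group held a high and a low line. Cdh3 made up 59.4% of the sum in parental cells, 5.91% in vector cells, 55.3% in the exon 3 line and 39.8% in the exon 2 line. Cdh2 made up 35.6%, 72.2%, 44.0% and 59.8% in the same order. Cdh13 held 4.43% of the sum in parental cells and 7.76 of 37.0 RPKM in vector cells, but 0% in the exon 3 line and 0.264% in the exon 2 line. Cdh2 and Cdh3 together thus made up 99.4% and 99.5% of the sum in the knockouts, against 95.0% in parental cells and 78.1% in vector cells. Left without Cdh3, the sum was 33.3 and 34.8 RPKM in the controls, 15.9 in the exon 3 line and 49.8 in the exon 2 line.

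**Figure D2:**
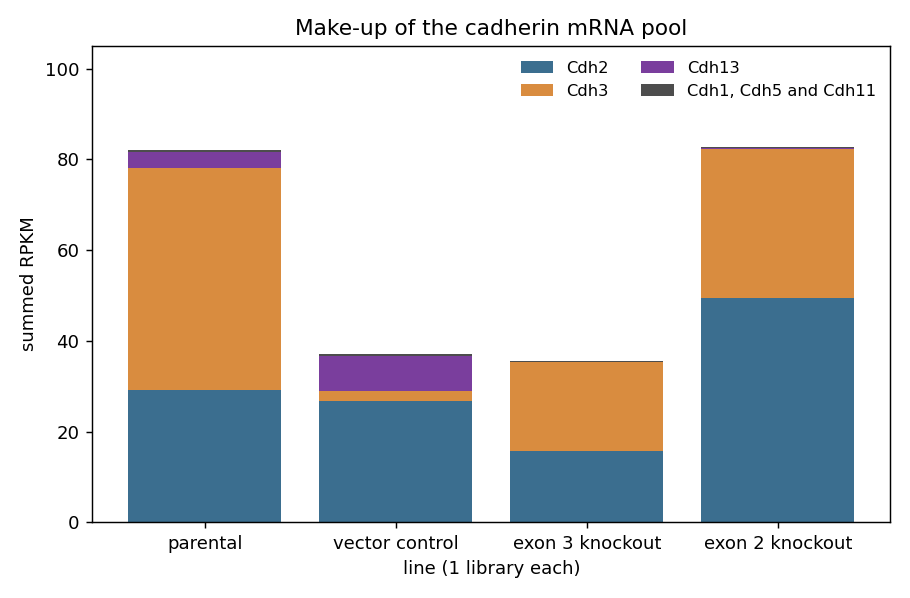
Summed RPKM of the 6 cadherins in each line (1 library each, linear axis from 0), split by gene. The parental cells and the exon 2 line reach about the same height (82.1 and 82.7 RPKM), the Cdh3 part is thin in vector cells, and the Cdh13 part is visible in the controls only.

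Among the catenins, beta-catenin was the most abundant. Ctnnb1 was at 325 RPKM in parental cells, 331 in vector cells, 218 in the exon 3 line and 237 in the exon 2 line. Both knockouts lay below both controls, as they did for 31.2% of all tested genes. The lines inside a group were close, at 328 ± 4.74 RPKM in the controls and 227 ± 13.9 in the knockouts (SD, n = 2 each). The knockouts held 69.3% of the control mean, a log2 change of -0.53 (SE 0.287, adjusted p = 0.334, limma) that did not pass the test. Its sign was negative in all 13 alternatives, from -0.76 to -0.44. The gene lies on chromosome 9, 120929216 to 120960507, plus strand.

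Alpha-catenin, which links the complex to actin, gave a different picture. Ctnna1 was at 113 RPKM in parental cells, 136 in vector cells, 73.2 in the exon 3 line and 115 in the exon 2 line. The exon 3 line was the low library, and the exon 2 line lay between the 2 controls, so the groups overlapped. The log2 change was -0.43 (SE 0.322, adjusted p = 0.483, limma), and the exon 2 line was 1.58-fold above the exon 3 line (1.52 to 1.64, counting error). All 4 catenins, and Cdh2 and Cdh13, had their lowest value in the exon 3 line. Ctnna1 and Cdh2 lie on chromosome 18.

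p120-catenin and plakoglobin had the smallest changes among the catenins. Ctnnd1 was at 57.9 RPKM in parental cells, 63.0 in vector cells, 52.9 in the exon 3 line and 54.6 in the exon 2 line. Both knockouts were below both controls by a narrow margin, at 89.0% of the control mean, an order found for 31.2% of all tested genes. The fitted log2 change was -0.16 (SE 0.291, adjusted p = 0.781, limma), and its sign turned to 0.04 after correction for GC content and length. Jup was at 23.0 RPKM in parental cells, 16.0 in vector cells, 15.7 in the exon 3 line and 20.9 in the exon 2 line. The parental cells and the exon 2 line were the higher pair, across the groups, and the log2 change was -0.08 (SE 0.332, adjusted p = 0.917, limma), with a sign that turned under other scalings. Ctnnd1 lies on chromosome 2 (84600071 to 84650765) and Jup on chromosome 11 (100368958 to 100397763), both on the minus strand.

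Ratios of Ctnnb1 to other catenins ranged less widely than its ratio to the cadherins. Ctnnb1 over Ctnna1 was 2.87 in parental cells, 2.44 in vector cells, 2.97 in the exon 3 line and 2.05 in the exon 2 line. Ctnnb1 over Jup, its relative on the cadherin tail, was 14.1, 20.7, 13.8 and 11.3 in that order. Ctnnb1 over the summed cadherins was 3.96 in parental cells, 8.96 in vector cells, 6.11 in the exon 3 line and 2.87 in the exon 2 line, the vector cells being highest and the exon 2 line lowest. These are ratios of RNA levels and were not tested.

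Set against the whole table, few members met any criterion. Of the 10, 7 had a mean of at least 1 RPKM and were tested, and 0 of 7 passed an adjusted p of 0.05 in limma, where 2 of 10871 genes did (0.0184%). At an unadjusted p under 0.05, 1 of 7 was called (Cdh13), where 19.1% of all tested genes were, and on the recovered reads (limma voom) 0 genes of the whole table passed the adjusted threshold and 2043 had an unadjusted p under 0.05. Both knockouts lay below both controls for 3 members (Cdh13, Ctnnb1 and Ctnnd1), against 31.2% of all tested genes, and above both for 0 members, against 21.9%. Cdh13 alone was at least 2-fold lower in all 4 pairs of a knockout and a control (1.73% of all tested genes), and 0 members were 2-fold higher in all 4 pairs (0.267%). The median log2 change of the 7 was -0.16, and that of all tested genes was -0.08. The median of the members moved to -0.59 without the exon 2 line, to -0.33 without the vector cells, where all 7 were negative, and to -0.07 with median-ratio scaling.

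Inside the groups, counted on RPKM + 1, Cdh3 alone of the 7 was at least 2-fold apart between the controls, as were 8.53% of all tested genes. Cdh2 alone was at least 2-fold apart between the knockouts, as were 4.99%. Cdh13 was 0.92 apart between the controls on the log2(RPKM + 1) scale, under 2-fold there because of the added 1, and 2.14-fold apart in RPKM.

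**Figure D3:**
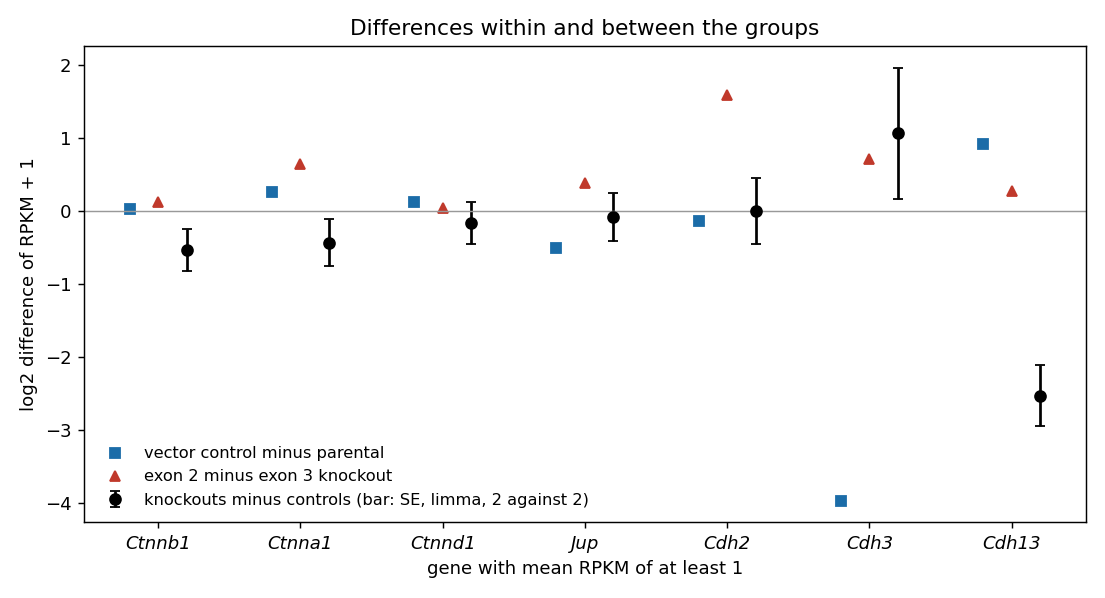
Log2 differences of RPKM + 1 for the 7 tested genes. Squares give the vector cells minus the parental cells, triangles the exon 2 minus the exon 3 line, and circles the knockouts minus the controls with the SE from limma (2 libraries against 2). Cdh3 has its largest difference between the controls (-3.97), Cdh2 between the knockouts (1.60) and Cdh13 between the groups (-2.53).

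**Figure D4:**
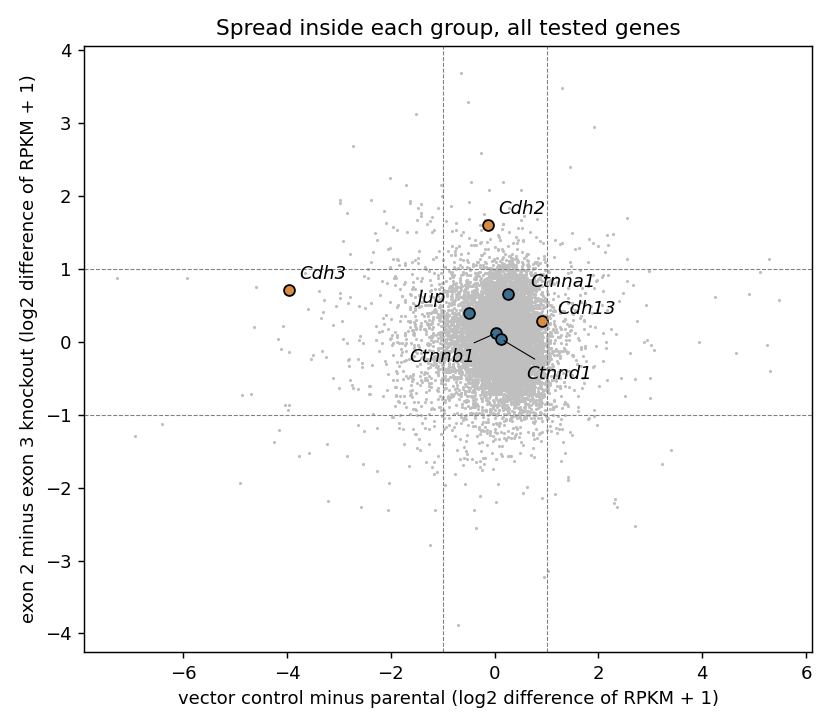
Each gray point is 1 of 10871 tested genes, placed by the log2 difference of RPKM + 1 between the controls (horizontal axis) and between the knockouts (vertical axis), with dashed lines at 2-fold. Cadherins (orange) and catenins (blue) are labelled, and Cdh3 and Cdh2 lie outside the 2-fold lines while the 4 catenins and Cdh13 lie inside them.

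Other members of the cadherin superfamily ranged from no reads to levels like those of Cdh2. Of 17 other classical and atypical cadherins, 7 had no read in any library and 1 was tested, Cdh24, with a log2 change of -0.41 (adjusted p = 0.534, limma). Cdh23, the tip-link cadherin of hair cells, was at 1.58 RPKM in parental cells, 0.0117 in vector cells, 0.0715 in the exon 3 line and 0.158 in the exon 2 line, again with the vector cells lowest (chosen after its values were seen). Among 20 measured large cadherins and protocadherins, all 9 tested had a negative log2 change, with a median of -0.67 beside -0.08 for all genes, and 0 passed the adjusted threshold, 2 of 9 having an unadjusted p under 0.05 beside 19.1% of all tested genes. Of all 10871 tested genes, 6001 had a log2 change at or below 0.0034, the value of Cdh2. Fat4, at 2.34, 1.54, 0.918 and 0.28 RPKM in the order above, was over 1 RPKM in the controls only. Dchs1 (6.92, 0.119, 0.708 and 1.47) and Pcdh19 (6.24, 0.641, 1.09 and 1.49) were highest in parental cells. The filter on mean RPKM favors negative changes for such genes, so the count of signs is not independent evidence. All 9 were negative under both other scalings, 8 of 9 with voom and 6 of 9 without the parental cells, and the median was -1.39 without the vector cells and -0.41 after GC and length correction. Pcdh17 (-1.95, adjusted p = 0.101, limma) and Fat1 (-1.10, adjusted p = 0.179, limma), a giant cadherin of the Hippo pathway, had the largest changes. Pcdh17 was at 5.08 RPKM in parental cells, 9.17 in vector cells, 0.479 in the exon 3 line and 1.79 in the exon 2 line. Both knockouts were thus below both controls, an order found for 31.2% of all tested genes.

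Relatives and partners of the catenins, and repressors of Cdh1, were described from lists chosen for their roles. Of the 61 tested genes of all these lists, 0 passed the adjusted threshold in limma. An unadjusted p under 0.05 was found for 7, all 7 lower in the knockouts, a smaller share than the 19.1% of all tested genes. Ctnnal1, an alpha-catenin relative that the study picked on these libraries, was at 15.6 and 18.4 RPKM in parental and vector cells and at 5.04 and 8.04 in the exon 3 and exon 2 lines (log2 change -1.28, adjusted p = 0.127, limma). Arvcf, a p120 relative, was the reverse case, at 2.20 and 1.84 RPKM in those controls and 3.87 and 4.09 in those knockouts (log2 change 0.72). Pkp4 was at -0.38 and Ctnnbip1 at 0.17. Of 12 tested linkers of junctions to actin, nectins among them, 10 had a negative change and 2 a positive one, with a median of -0.25. The count was the same under both other scalings but 7 and 5 without the vector cells, and the median was -0.40 without the parental cells and -0.16 with median-ratio scaling. Tjp1, the scaffold ZO-1, was at -1.01 (adjusted p = 0.2, limma), vinculin (Vcl) at -0.66, Actn4 at 0.36 and nectin-2 (Pvrl2) at 0.22. Of 12 desmosome genes, 5 had no read in any library, among them the desmoglein Dsg2. Of the 4 tested, Pkp2 was at -0.40, Pkp3 at -0.33 and Pkp1 at 0.54, with overlapping groups and adjusted p of at least 0.592 (limma). Their count of 3 negative and 1 positive turned to 1 and 3 without the parental cells. It was 0 and 4 without the exon 3 line, and 4 and 0 without the exon 2 line.

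Genes that cut, move or phosphorylate cadherins were all expressed. All 14 were tested, 6 with a negative and 8 with a positive change and a median of 0.03, turning to 8 and 6 with quantile normalization and after GC and length correction. The largest negative changes were those of Fer, a kinase bound to p120 (-1.23), and Adam10, the protease that sheds cadherin ectodomains (-1.18). These 2 of the 14 had an unadjusted p under 0.05 in limma, beside 19.1% of all tested genes. Fer was at 18.1 and 16.9 RPKM in parental and vector cells and 4.90 and 9.54 in the exon 3 and exon 2 lines. The largest positive changes were those of the kinase Fyn (0.54) and the phosphatase Ptpn1 (0.40).

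On the Wnt side, Apc had the largest change among the tested genes of the destruction complex. Apc was at 9.79 RPKM in parental cells, 12.5 in vector cells, 2.81 in the exon 3 line and 5.54 in the exon 2 line. Both knockouts lay below both controls (log2 change -1.27, adjusted p = 0.138, limma), as they did for 31.2% of all tested genes. Csnk1a1 was at -0.51, and Axin1 (0.45) and Gsk3a (0.44) were on the other side, so of 8 tested genes 5 were negative and 3 positive (4 and 4 with quantile normalization). Nuclear partners of beta-catenin were even, with 3 negative and 3 positive changes, turning to 1 and 5 with quantile normalization, to 5 and 1 after GC and length correction and to 4 and 2 without the vector cells. Bcl9 was at -0.63, Tcf7l2 at -0.10, Tcf7 at 0.49 and Pygo2 at 0.23, and Lef1 had at most 5 reads in a library.

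Known targets of beta-catenin went both ways. Of 7 tested, 3 had a negative and 4 a positive change (median 0.18, but -0.45 without the vector cells and -0.17 after GC and length correction), the largest being Nkd1 (1.09), Notum (0.52) and Myc (0.52) and, on the other side, Cd44 (-0.46) and Axin2 (-0.35). Axin2, a widely used readout of the pathway, was at 3.79 RPKM in parental cells, 2.04 in vector cells, 1.23 in the exon 3 line and 3.03 in the exon 2 line, with overlapping groups. Repressors of Cdh1 were expressed in every library. Of 6 tested, 4 had a negative change (median -0.58, and -0.31 without the exon 3 line), while Snai1 (0.44) and Twist2 (0.14) were positive. Zeb2 (-1.21, adjusted p = 0.138, limma) and Snai2 (-0.77, adjusted p = 0.23, limma) had an unadjusted p under 0.05, as did 19.1% of all tested genes. Zeb2 is among the genes the study picked on these libraries, so its direction is not independent evidence. Zeb2 was at 9.42 and 11.5 RPKM in parental and vector cells and 3.14 and 4.91 in the exon 3 and exon 2 lines, and Cdh1 stayed at or below 0.252 RPKM in all 4.

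**Figure D5:**
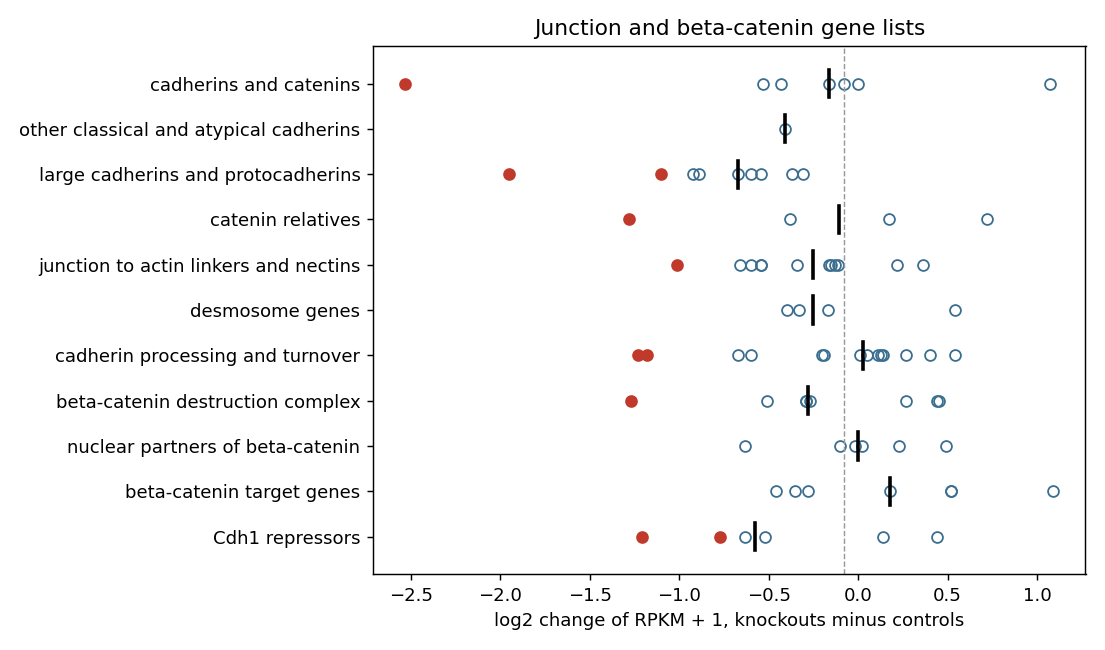
Log2 change of RPKM + 1, knockouts minus controls, for each tested gene of the cadherin and catenin group and of the related lists. Filled red points have an unadjusted p under 0.05 in limma, open points do not, black bars are list medians and the dashed line is the median of all tested genes (-0.08). Cdh13 is the point farthest to the left (-2.53), and the large cadherins and protocadherins lie wholly to the left of 0.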

How the data were processed

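RNA was taken from 4 mouse mammary tumor cell lines, 1 library each, and grouped by sample title. The authors deposited 1 table of RPKM without log scale. The submitters' processing notes name CASAVA 1.8, GSNAP and GRCm38. The gene model and counting rule, and whether the table was counted by strand, are not given in the sources used here. The labels name a stranded total RNA kit.

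Whole reads were recovered from the RPKM ratios between libraries (100% of genes above 0 came out whole within 0.001 reads), and their absolute scale rests on annotated lengths. Recovered lengths followed coding length in GENCODE M21 (median ratio 1), where 20971 symbols (99.4%) were found. Cdh13 had a counted length of 2451 against an annotated 2145 bases. Library totals in genes were 20563350 (parental), 17131486 (vector control), 15715932 (exon 3) and 14723193 (exon 2) reads. Depth sets the 95% Poisson intervals and the level of 3 reads put in place of a count of 0.

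Values were tested as log2(RPKM + 1), which understates changes of low genes, for 10871 genes with mean RPKM of at least 1. limma 3.58.1 (R 4.3.3) with an intensity trend compared 2 knockouts with 2 controls, without covariates, two-sided, with Benjamini-Hochberg adjustment and a threshold of 0.05. The code was run on simulated data as a check of the calculation, which does not measure its error rate on lines such as these. SE is the moderated standard error of limma. Tables and intervals were made with Python 3.11.15, numpy 2.4.6, pandas 2.3.3 and scipy 1.17.1. The 10 members and all lists were chosen with earlier results of these data known. Named were all members, S100a4, the 2 genes of each list with the largest changes in each direction, and the 3 genes nearest to Cdh13. Other named genes are given as list counts, markers or neighbors. Alternatives were a pseudocount of 0.1, 2 scalings, no filter or a mean RPKM of at least 5, other priors, GC and length correction, voom on recovered reads, 3-fold, and leaving out each library.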

Additional observations from a re-analysis of the deposited data

Results flagged for a closer look

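The 2 knockouts lay on opposite sides of both controls for Cdh2, at 15.7 RPKM in the exon 3 line and 49.4 in the exon 2 line against 29.2 in parental cells and 26.7 in vector cells, a log2 difference of 1.60 between the knockouts. The difference was not tested, since each knockout has 1 library. Of all tested genes, 857 (7.88%) had the knockouts on opposite sides of both controls.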

How the results depend on the processing

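Cdh13 kept a negative log2 change in all 12 alternatives that could test it (-6.88 to -2.29 with all libraries, -2.99 to -2.07 leaving 1 out) and passed an adjusted p of 0.05 with a robust prior and without either control. A mean of at least 5 RPKM removed it. Ctnnb1 and Ctnna1 kept their sign in 13 of 13 and were never called. Signs turned for Cdh2 (-0.004 with a pseudocount of 0.1, -0.01 with voom, -0.80 to 0.80 leaving out a library), Cdh3 (-0.91 to 3.06 leaving out a library), Ctnnd1 (0.04 with GC and length correction) and Jup (0.01 with median-ratio scaling, 0.05 with quantile normalization, -0.33 to 0.17 leaving out a library). Over the table, limma called 2 genes lower: 1 with a pseudocount of 0.1, 0 with median-ratio scaling, 1 with quantile normalization, 0 without a filter, 25 at a mean of at least 5 RPKM, 242 with a robust prior, 0 with GC and length correction, 0 with voom and 1 to 550 leaving out a library (550 without the parental cells, 335 without the vector cells). It called 0 higher, and 7 at a mean of at least 5 RPKM, 43 with a robust prior and 1 to 238 leaving out a library. Genes 2-fold lower in all 4 pairs numbered 188, and 330 with a pseudocount of 0.1, 93 with quantile normalization, 120 with GC and length correction, 16 at 3-fold and 351 to 823 leaving out a library. Those 2-fold higher numbered 29, and 44, 51, 7, 1 and 102 to 235 under the same alternatives. The lower share of these 2 counts was 86.6%, against 64.6% with quantile normalization and 76.9% with median-ratio scaling. Genes with both knockouts below and above both controls numbered 3395 and 2384, against 2612 and 3015 with quantile normalization, which moved the median of all genes by 0.12. At 3-fold, 330 genes were apart between the controls and 102 between the knockouts, and a pseudocount of 0.1 gave 983 between the knockouts. The cause was not tested. No paired analysis was possible because replicate numbers follow the order of deposition and pair nothing. With 1 library per line, depth limits Cdh1, Cdh5 and Cdh11 most.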
